A study of Mus musculus with 9 samples.

Results

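The nuclear genes of oxidative phosphorylation encode most subunits of the respiratory chain and of ATP synthase in the inner mitochondrial membrane. They were taken as the protein-coding genes on nuclear chromosomes whose symbol begins with Nduf, Uqcr, Cox4 to Cox8 or Atp5, or is Sdha, Sdhb, Sdhc or Sdhd. This gave 96 of the 21887 protein-coding genes of the RefSeq table (assembly GRCm38.p6, whose coordinates are those of mm10). The rule reads symbols and chromosomes only, but it was chosen with earlier results of these data known. Complex I had 39 subunit genes, 7 of them core and 32 accessory, and 8 genes of assembly factors. Complexes II, III, IV and V had 4, 8, 20 and 17 genes. Ndufa4, which is now known as a complex IV subunit, and its paralogue Ndufa4l2 were counted with complex IV.

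Complex I (NADH dehydrogenase) and complex II (succinate dehydrogenase) pass electrons to ubiquinone, complex III hands them to cytochrome c, and complex IV (cytochrome c oxidase) passes them to oxygen. Complex V (ATP synthase) uses the resulting proton gradient to make ATP. Granulosa cells, which surround the oocyte in the follicle, turn strongly to steroid synthesis after the surge of luteinising hormone (LH), and the first step of that synthesis also takes place in mitochondria. The promoters of these genes are known as targets of the transcription factors NRF1, GABP (an ETS family factor) and YY1.

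The study mapped where the glucocorticoid receptor (GR), a hormone-activated transcription factor, lay on chromatin of granulosa cells by chromatin immunoprecipitation and sequencing (ChIP-seq). All libraries used here came from wildtype CBA x C57BL/6 F1 mice, 21 days old, that had received 5 IU of eCG, a gonadotropin that makes follicles grow. The 0 h group (2 GR libraries and 1 library of H3K27ac, a histone mark of active promoters and enhancers) was killed 44 h later without further treatment. The 6 h group (2 GR libraries) instead received 5 IU of hCG, which acts as LH does, and was killed 6 h after that injection. No 6 h library without hCG was analysed here, so hCG and the passage of time cannot be told apart. The labels do not say whether the numbered libraries came from separate mice, and p-values measure only the spread between these libraries. The lists held 10119 and 9728 GR peaks at 0 h and 14748 and 10588 at 6 h. The H3K27ac list held 37460 peaks. H3K27ac peaks lay at 10 of 10 granulosa cell markers, 4 of 5 theca, 2 of 6 oocyte, 2 of 5 leukocyte and 2 of 5 endothelial markers. Of the theca markers Cyp17a1, Lhcgr, Ptch1 and Cyp11a1 had one and Insl3 had none. Of the leukocyte markers Cd68 and Itgam had one and Ptprc, Csf1r and Cd3e had none.

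A gene counted as having a peak when a peak overlapped its span, with 2 kb to each side, by at least 1 bp. Most of the 96 genes carried the active mark at 0 h. An H3K27ac peak lay in the window of 90 genes (93.8%), against 56.4% of all protein-coding genes. The genes without one were Cox6a2, Cox7b2, Cox8b and Cox8c, which encode complex IV isoforms of other tissues, and Ndufb4b and Ndufb4c, paralogues of the complex I gene Ndufb4. The widest H3K27ac peak of each window had a median width of 1252 bp over the 90 genes and of 1206 bp over all genes that had one. H3K27ac was mapped in 1 library, so these values have no replicate check.

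GR peaks lay at most of the genes with the mark and at none without it. At least 1 GR library had a peak at 83 of the 96 genes. The first 0 h library had one at 77 genes (80.2%, 95% Wilson interval 71.1 to 86.9) and the second at 66 (68.8%, 58.9 to 77.1). The first 6 h library had one at 74 (77.1%, 67.7 to 84.4) and the second at 52 (54.2%, 44.2 to 63.8). Over all protein-coding genes the shares in the same order were 39.1%, 36.7%, 43.4% and 30.1%. The intervals cover counting error only.

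**Figure D1:**
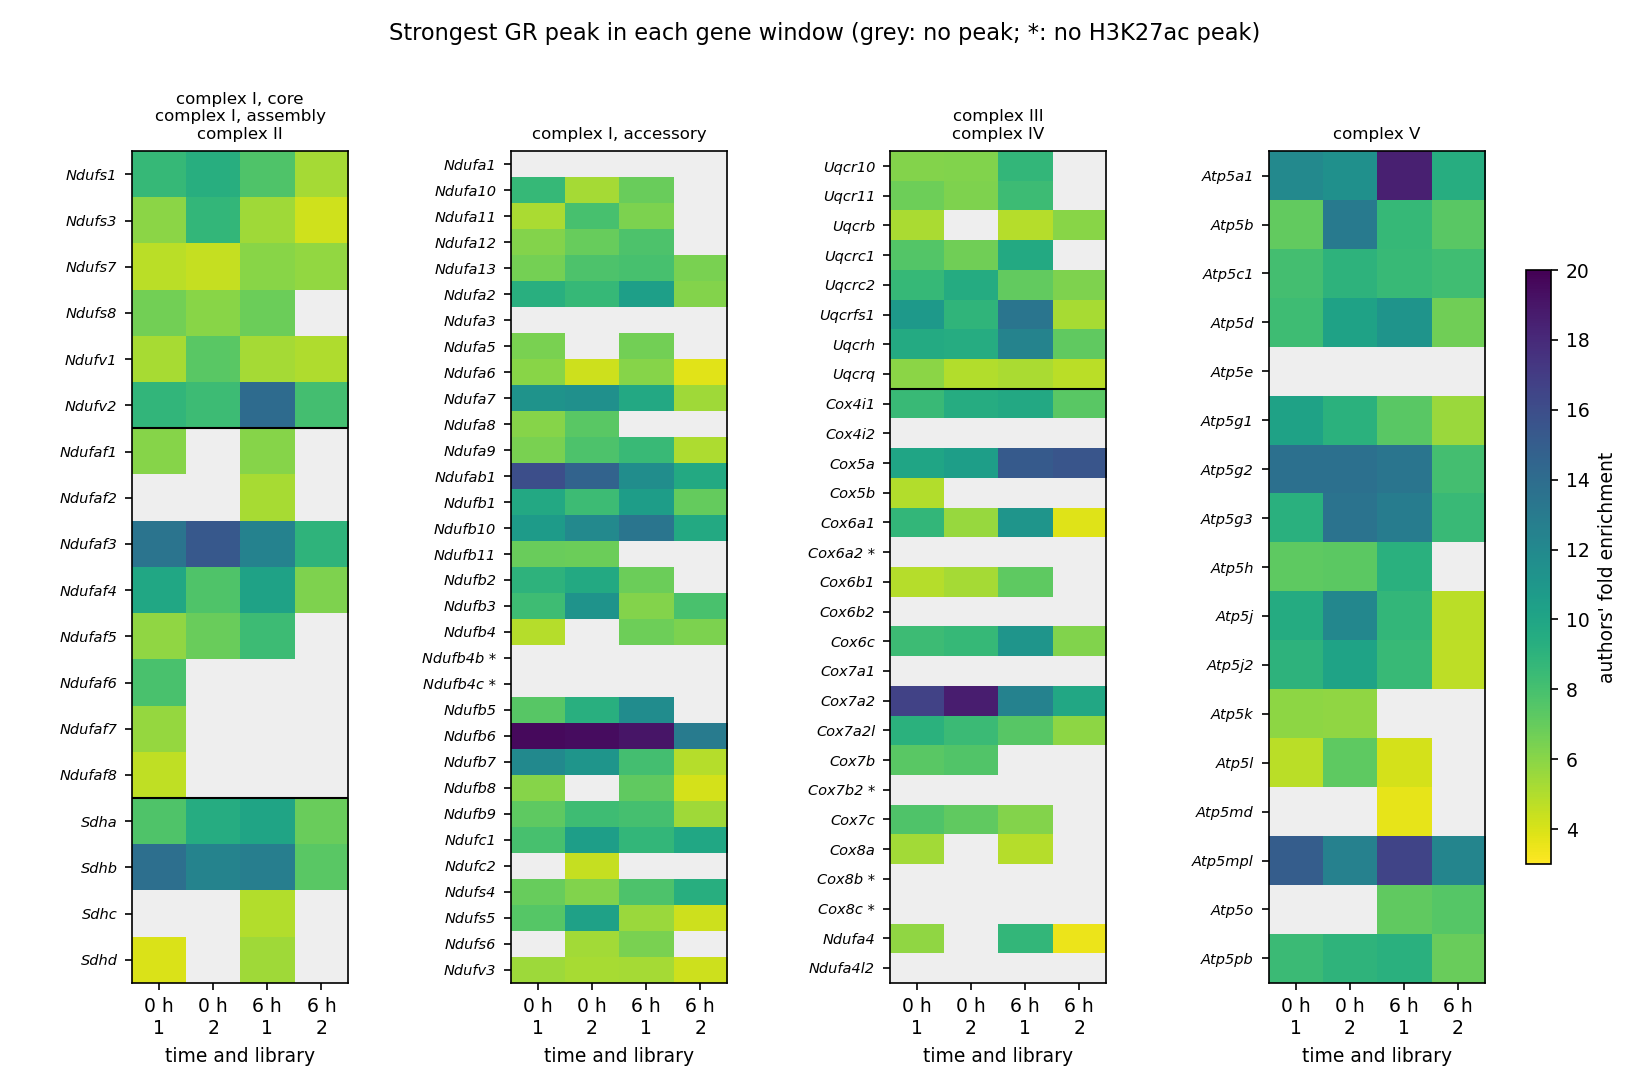
Strongest GR peak in the window of 95 of the 96 genes (rows) in the 4 GR libraries (columns), coloured by the fold enrichment the authors' peak caller gave; grey means no peak and an asterisk no H3K27ac peak. Ndufb6 and Cox7a2 are among the darkest rows, and the column of the second 6 h library has the most grey cells, with peaks at 52 genes.

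Much of that difference from other genes went with the active mark. Among genes with an H3K27ac peak, 85.6%, 73.3%, 82.2% and 57.8% of the 90 genes had a GR peak in the 4 libraries, in the order given above. The shares over all 12341 protein-coding genes with the mark were 68.5%, 64.4%, 74.7% and 52.2%. The genes of oxidative phosphorylation are also short, with a median span of 7228 bp against 24755 bp for genes with the mark, so their windows are smaller. A comparison free of gene length used peaks within 1 kb of a start listed in the RefSeq promoter table, which holds 78 of the 96 genes. Of the 75 such genes with H3K27ac at the start, 85.3%, 72%, 81.3% and 52% had a GR peak there, against 71.8%, 66.8%, 76.8% and 49.7% of 8652 genes. Peaks of all 4 libraries lay within 1 kb of the start at 34 of the 78 genes (43.6%), against 22% of 17492 genes. With H3K27ac at the start these shares were 45.3% and 44.3%. Among genes with an H3K27ac peak at the start, the share with GR in all 4 libraries was thus near that of all such genes. Only the presence of a peak was matched, not the level of acetylation.

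**Figure D2:**
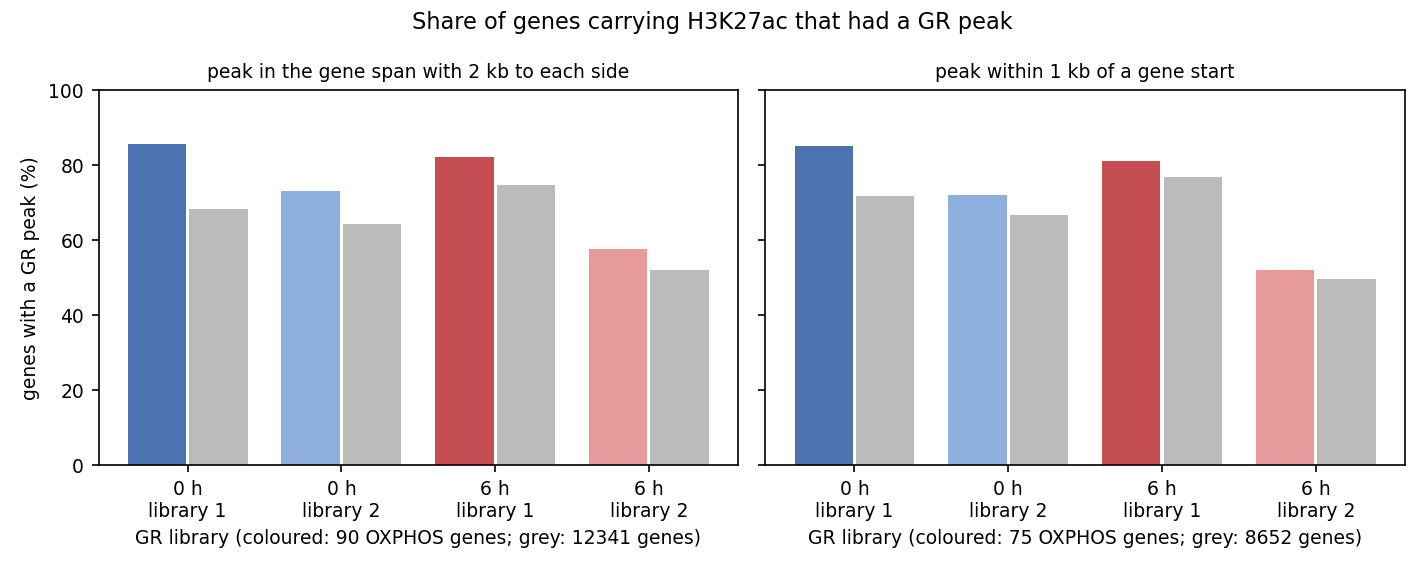
Percent of genes carrying H3K27ac that had a GR peak in each library, for oxidative phosphorylation (OXPHOS) genes (coloured bars) and all protein-coding genes (grey bars), in the gene window (left) and within 1 kb of a start (right). The coloured bar is higher in each library, from 85.6% against 68.5% in the first 0 h library to 52% against 49.7% at starts in the second 6 h library.

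The first comparison asked whether the number of genes with GR differed before and after hCG. The mean was 71.5 ± 7.78 genes at 0 h and 63.0 ± 15.6 at 6 h (SD, n = 2 each). The 6 h libraries differed between themselves by more than the -8.5 genes that separated the means (two-sided exact permutation test, p = 0.667; the smallest p that 2 libraries against 2 allow is 0.3333). Without the second 6 h library it turned to 2.5 genes more at 6 h. With each list cut to its strongest 9726 peaks it was -17.5 genes (exact permutation p = 0.3333, the smallest possible). Over all protein-coding genes the share differed by -1.12 percentage points (exact permutation p = 1).

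The second 6 h library called the fewest of these genes, and also the fewest of all protein-coding genes (30.1%, against 36.7% to 43.4%). It lacked a peak at 14 genes that the other 3 libraries called, among them the complex I genes Ndufs8, Ndufa10, Ndufa11, Ndufa12, Ndufb2 and Ndufb5 and the complex III genes Uqcr10, Uqcr11 and Uqcrc1. The remaining 5 were Ndufaf5, Cox6b1, Cox7c, Atp5h and Atp5l. The share of all genes with this pattern of calls was not counted, so the 14 are not read as a trait of these genes. The 14 genes had weaker peaks in the other libraries. Their median fold enrichment, a ratio over the peak caller's background, was 6.68, 6.90 and 7.47 in the other 3 libraries. The 46 genes called in all 4 libraries had medians of 8.79, 9.48 and 9.496 there. That library also had the narrowest peaks (median 322 bp, against 374 to 393 bp) and the lowest median fold enrichment of its list, 6.89.

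**Figure D3:**
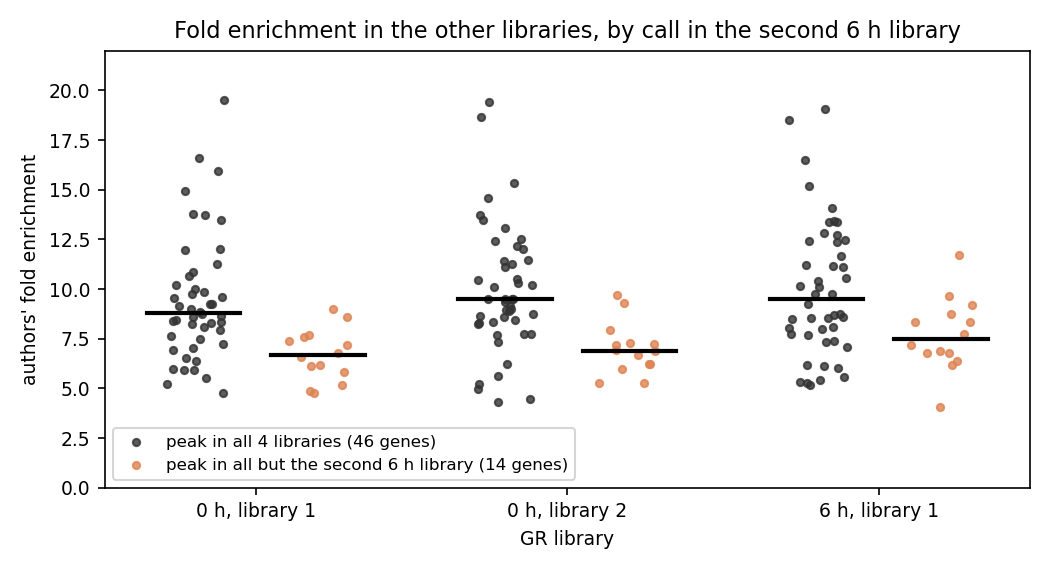
Fold enrichment given by the authors' peak caller in 3 GR libraries for genes called in all 4 libraries (black, 46 genes) and genes called in all but the second 6 h library (orange, 14 genes); each point is the strongest peak of a gene and lines are medians. The orange medians, 6.68 to 7.47, lie under the black medians, 8.79 to 9.496, in each of these libraries.

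To compare places rather than genes, overlapping GR peaks of the 4 lists were merged into loci. The windows held 110 loci, none shared by a pair of these genes. Of these, 48 were called in all 4 libraries, 4 in both 6 h libraries and neither at 0 h, 7 in both 0 h libraries and neither at 6 h, and 51 in other combinations. Loci in all 4 libraries lay at 46 genes (47.9%), against 23.9% of all protein-coding genes and 42.2% of those with H3K27ac (51.1% of the 90). Loci only at 6 h lay at 4 genes (4.17%), against 6.13% of all genes and 10% of those with the mark (4.44% of the 90). Loci only at 0 h lay at 7 genes (7.29%), against 2.52% and 4.39% (7.78% of the 90). The share for loci only at 6 h was below the background and that for loci only at 0 h above it. These shares are over whole windows, which are smaller here (median gene span 7228 bp, against 24755 bp for genes with the mark). Time-restricted loci were not compared at starts alone, so the part played by gene length was not tested. Both counts rest on single libraries: 14 genes had a locus only at 6 h when the second 6 h library was left out, and 9 when the first of 0 h was. Loci only at 0 h lay at 23 genes when the first 6 h library was dropped and at 11 when the second of 0 h was.

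Most loci sat at gene starts. Of 94 loci at genes with a listed start, 76 (80.9%) lay within 1 kb of it and 66 overlapped it. The genes are short (median span 7228 bp), which brings any locus in a window closer to the start. The share near starts over the windows of all genes was not counted at either time. The summits of the peaks within 1 kb had a median position of 48 and 48.5 bp into the gene at 0 h and 29.5 and 58.5 bp at 6 h. In the first 0 h library 61 of 68 such summits lay within 250 bp of the start, and in the second 6 h library 35 of 40. Counting an end of the gene where no start was listed, 88.8% and 88.5% of the member peaks at 0 h and 85.4% and 86.7% at 6 h were this near. The mean fell by 2.57 percentage points, from 88.6 ± 0.214 to 86.04 ± 0.884 (SD, n = 2), with the smallest p this design allows (0.3333, exact permutation).

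**Figure D4:**
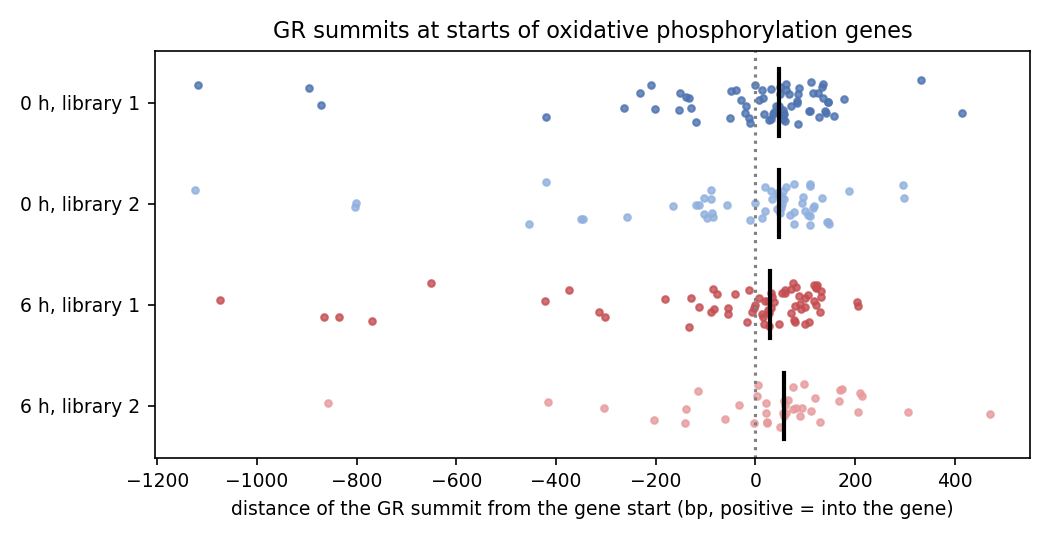
Distance of GR peak summits from the start of the gene in bp, positive into the gene, for peaks in loci within 1 kb of a listed start, with 1 point per peak (40 to 68 per library) and the median as a black line. In each library most points lie within 250 bp of the start, and medians lie 29.5 to 58.5 bp into the gene.

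At 0 h every GR peak at these genes lay in acetylated chromatin, 89 of 89 (95% Wilson interval 95.9 to 100) and 78 of 78 (95.3 to 100). H3K27ac was mapped at 0 h only, so GR peaks of 6 h were also set against acetylation at 0 h. Acetylation at 6 h is not known. For the 6 h libraries the shares were 93 of 96 (96.9%, 91.2 to 98.9) and 56 of 60 (93.3%, 84.1 to 97.4). These intervals cover counting error within a library and not the spread between libraries, since peaks are not replicates. From 0 h to 6 h the mean fell by 4.90 percentage points, from 100 ± 0 to 95.1 ± 2.50 (SD, n = 2). The exact permutation p of 0.3333 is the smallest this design allows. The share of each whole GR list in H3K27ac, and its change with time, were not counted. Neither the 100% nor the fall is therefore read as a trait of these genes. Only 5 of the 110 loci lay outside H3K27ac, in Ndufc1, Ndufs4, Sdhb, Cox5a and Atp5c1, and none of the 5 was called at 0 h. The share inside was 95.5%, against 74.4% of all 18584 loci, which include those away from genes. Over the whole series 98.4% of the loci in all 4 libraries, 39.3% of those only at 6 h and 91.3% of those only at 0 h lay in H3K27ac. For loci in other combinations it was 70.8%. At these genes the counts in the same order were 48 of 48, 2 of 4, 7 of 7 and 48 of 51.

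The sequences of 6 starts are shown because they underlie GR peaks of all 4 libraries. Each runs from 250 bases before the start and holds the first 30 bases of the gene (RefSeq, GRCm38.p6). Cox7a2 (chr9:79759824-79760103, minus strand), Ndufaf3 (chr9:108567407-108567686, minus strand), Atp5g2 (chr15:102671018-102671297, minus strand) and Cox5a (chr9:57520982-57521261, plus strand) had the best mean rank of strongest GR peak in the window among genes whose start lay inside a locus of all 4 libraries. For Cox5a the strongest peak at 6 h was at another locus, and its start alone ranked lower. Sdhb (chr4:140961021-140961300, plus strand) and Atp5j (chr16:84834947-84835226, minus strand) were added after their motifs were seen. Capitals mark matches to the NRF1 motif GCATGCGC, the ETS motif CCGGAAG or the YY1 motif AAGATGGC on either strand.
Cox7a2: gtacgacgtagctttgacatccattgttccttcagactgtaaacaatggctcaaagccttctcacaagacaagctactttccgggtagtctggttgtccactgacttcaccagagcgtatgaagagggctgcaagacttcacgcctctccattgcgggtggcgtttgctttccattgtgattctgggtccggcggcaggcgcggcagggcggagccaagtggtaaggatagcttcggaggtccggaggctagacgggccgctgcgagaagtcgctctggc
Ndufaf3: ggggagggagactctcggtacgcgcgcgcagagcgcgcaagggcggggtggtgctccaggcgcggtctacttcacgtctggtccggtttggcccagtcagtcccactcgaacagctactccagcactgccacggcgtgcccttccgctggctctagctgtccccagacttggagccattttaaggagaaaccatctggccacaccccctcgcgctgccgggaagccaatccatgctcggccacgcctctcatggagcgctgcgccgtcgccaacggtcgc
Atp5g2: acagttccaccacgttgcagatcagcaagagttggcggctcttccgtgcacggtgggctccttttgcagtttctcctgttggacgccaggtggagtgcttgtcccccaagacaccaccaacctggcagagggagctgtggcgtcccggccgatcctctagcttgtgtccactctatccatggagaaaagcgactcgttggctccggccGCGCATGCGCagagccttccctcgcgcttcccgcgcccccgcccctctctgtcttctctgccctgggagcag
Cox5a: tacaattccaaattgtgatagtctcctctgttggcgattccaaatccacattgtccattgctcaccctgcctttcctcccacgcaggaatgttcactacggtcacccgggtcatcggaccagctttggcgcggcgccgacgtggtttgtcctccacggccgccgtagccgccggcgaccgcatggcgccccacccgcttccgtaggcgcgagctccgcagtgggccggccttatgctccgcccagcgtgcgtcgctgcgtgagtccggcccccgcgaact
Sdhb: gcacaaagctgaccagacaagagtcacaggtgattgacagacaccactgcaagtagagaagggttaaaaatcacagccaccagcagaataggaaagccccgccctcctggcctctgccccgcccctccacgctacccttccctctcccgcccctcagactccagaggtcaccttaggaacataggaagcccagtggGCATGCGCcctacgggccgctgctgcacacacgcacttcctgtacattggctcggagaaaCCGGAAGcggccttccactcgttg
Atp5j: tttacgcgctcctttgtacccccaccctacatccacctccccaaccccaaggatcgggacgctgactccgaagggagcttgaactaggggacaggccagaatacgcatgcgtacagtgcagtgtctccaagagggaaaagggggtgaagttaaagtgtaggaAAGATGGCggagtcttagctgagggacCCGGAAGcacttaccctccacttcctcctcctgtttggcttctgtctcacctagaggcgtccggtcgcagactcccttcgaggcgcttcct
The capitals of Atp5g2 are a pair of overlapping NRF1 matches, those of Sdhb an NRF1 and an ETS match, and those of Atp5j a YY1 and an ETS match. The other 3 sequences hold none of the motifs searched.

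Over the promoters of the 78 genes in the table (300 bases each), the NRF1 motif was in 12 (15.4%), against 3.94% of all 17492 genes and 6.75% of those with H3K27ac at the start. The YY1 motif was in 11 (14.1%, against 3.57% and 5.91%), and the ETS motif in 19 (24.4%, against 12.9% and 22.7%). The cyclic AMP element TGACGTCA was in 4 (5.13%, against 2.54% and 3.99%) and the AP-1 motif TGANTCA in 7 (8.97%, against 8.12% and 5.33%). A GR element, written as GNACA, any 3 bases and then its reverse complement, was in 0 of the 78, and it is rare in all promoters (0.503%). The GR hexamer AGAACA was in 11 (14.1%, against 18.5% and 13.9%). Matches are descriptions of letters and not of binding. GR peaks in all 4 libraries within 1 kb of the start were present at 34 of the 78 genes. Among these 34, NRF1 matched in 5, YY1 in 7, ETS in 6 and the GR hexamer in 5, and among the other 44 the numbers were 7, 4, 13 and 6.

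The complexes differed in how many of their genes GR libraries called. Of the 7 core genes of complex I, which carry its flavin and iron-sulphur clusters or bind ubiquinone, 5 had a locus in all 4 libraries. Of the 32 accessory genes 15 had one, and of the 8 assembly factor genes 2. Complexes II and III had 2 of 4 and 4 of 8, complex IV 6 of 20, and complex V 12 of 17. The last includes Atp5h, whose locus reaches past its window, so that the second 6 h library had no peak within the window. Ndufs5 in turn had a peak of every library in its window but no single locus of all 4. The 46 genes with such a locus and the 46 with a peak in each library thus differ by these 2. The share of genes with such a locus was 23.9% over all protein-coding genes and 42.2% over those with H3K27ac. Of the 20 complex IV genes, 8 had no GR peak in any library, and 7 of these are tissue isoforms. The count of a complex thus depends on which paralogues the symbols took in. The numbers of genes per complex are small, and no test was made between complexes.

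**Figure D5:**
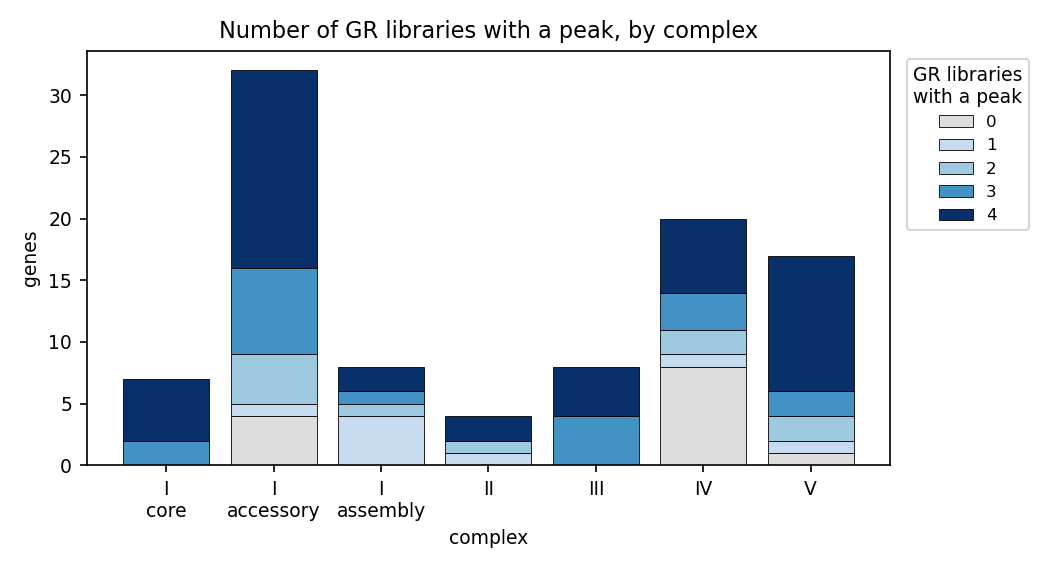
Number of genes of each complex (bar height) by the number of GR libraries, 0 to 4, with a peak in the gene window (shade). Complex IV has 8 genes without a peak in any library, and complex V has 1.

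Among the core genes of complex I, Ndufv2, an iron-sulphur subunit, had the best mean rank. The locus over its start (chromosome 17, 66101021 to 66102174) had fold enrichments of 7.83 and 8.34 at 0 h and 14.1 and 7.92 at 6 h. The value of the first 6 h library was the high one. Each list was called on its own, so values given here in the order of the libraries show the strength of a peak within its list and no change with time. A further Ndufv2 locus in all 4 libraries lay 1276 bp beyond the gene, with 8.83, 7.77, 8.74 and 8.10. Ndufs1, the largest iron-sulphur subunit, shared its locus with the start of Eef1b2 and had 8.64, 9.34, 7.70 and 5.30. Ndufv1, the flavin-binding subunit, had 5.21, 7.32, 5.30 and 5.03, and Ndufs7 had 4.78, 4.48, 6.05 and 5.73. These last values lie under the median of each list, 6.89 to 7.89.

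Of the accessory genes of complex I, Ndufb6 had the highest fold enrichment in each of the 4 libraries, with 19.5 and 19.4 at 0 h and 19.1 and 12.9 at 6 h. That locus (chromosome 4, 40269311 to 40270117) was outside Ndufb6, 9304 bp from its start, and lay within 1 kb of an end of Topors and Smim27. At the start of Ndufb6 itself the values were 5.44, 6.35 and 7.44, with no peak in the second 6 h library. The locus of Ndufb10 likewise lay 4064 bp from its start, where the nearest listed start was that of the ribosomal protein gene Rps2. It had 10.7, 12.03, 13.4 and 9.66, and no other locus lay in the window of Ndufb10. Ndufab1, the mitochondrial acyl carrier protein, had its locus over its own start, with 15.9, 14.6, 11.7 and 9.68. It ranked among the strongest 19.0% of peaks in the second 6 h library and higher in the others. Ndufa7 shared its locus with the start of the ribosomal protein gene Rps28 and had 11.3, 11.5, 9.76 and 5.44.

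Assembly factors help to build complex I and are not part of the finished enzyme. Ndufaf3 had a locus of 1285 bp over its start (chromosome 9, 108566534 to 108567818), also within 1 kb of ends of Dalrd3 and Impdh2, with 13.5, 15.3, 12.5 and 8.93. Ndufaf4 had 9.87, 7.68, 10.2 and 6.30. The other 6 were called in 1 to 3 libraries. Ndufaf6, Ndufaf7 and Ndufaf8 were called in the first 0 h library only (7.87, 5.69 and 4.64) and Ndufaf2 in the first 6 h library only (5.20). Each of the 8 had an H3K27ac peak.

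In complex II, Sdhb, the iron-sulphur subunit, had 13.8, 12.4, 12.7 and 7.36 at its start (chromosome 4, 140961117 to 140961792). Sdha, the flavoprotein that binds succinate, had 7.66, 9.48, 10.1 and 6.89. Both therefore had a peak in every library. The membrane anchors had fewer calls. Sdhc had a peak in the first 6 h library only (4.98), and Sdhd had 3.94 in the first 0 h and 5.45 in the first 6 h library.

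In complex III, Uqcrh had 4 loci, and the locus in all 4 libraries lay 93 bp outside the gene on the side of Lrrc41, with 9.63, 9.504, 12.4 and 7.17. The locus over the start of Uqcrh was called in the first library of each time, with 6.10 at 0 h and 7.16 at 6 h. Uqcrfs1, the Rieske iron-sulphur protein, had 10.8, 8.88, 13.4 and 5.24; in the second 6 h library that peak was among the weakest of its list. Uqcrc2, a core protein, had 8.59, 9.52, 7.11 and 6.30. Uqcrq shared its locus with Gdf9, the gene of an oocyte growth factor, and had 5.94, 4.99, 5.15 and 4.78. The H3K27ac peak counted for Gdf9 among the oocyte markers thus also lies at Uqcrq.

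Complex IV has isoforms of single subunits for particular tissues, and they stood apart from their widely expressed partners. None of Cox4i2, Cox6a2, Cox6b2, Cox7a1, Cox7b2, Cox8b and Cox8c had a GR peak in any of the 4 libraries. Each of the partners Cox4i1, Cox6a1, Cox6b1, Cox7a2, Cox7b and Cox8a had a peak in 2 to 4. H3K27ac lay at 3 of the 7 tissue isoforms (Cox4i2, Cox6b2 and Cox7a1) and at 6 of the 6 partners. Ndufa4l2, a paralogue of Ndufa4 known from hypoxia, also had H3K27ac and no GR peak, whereas Ndufa4 had 5.80, none, 8.74 and 3.48. A missing peak shows only that none passed the authors' limit. Cox6a2, Cox7b2, Cox8b and Cox8c lacked the mark, and few genes without it had GR anywhere. Of the 8558 protein-coding genes with a peak in the first 0 h library, 8452 carried H3K27ac. Over all genes with the mark, 68.5%, 64.4%, 74.7% and 52.2% had a GR peak in the 4 libraries. Only 3 of the tissue isoforms can be set against these shares, so the contrast is not read further.

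Cox7a2, the widely expressed isoform of subunit VIIa, had the best mean rank of complex IV. Its locus (chromosome 9, 79759516 to 79760166) had 16.6 and 18.7 at 0 h and 12.4 and 9.79 at 6 h, and its summits lay at -12, 34, 25 and 22 bp from the start. The promoter printed above therefore holds the summit of 3 of the 4 libraries near its end. Cox4i1 had 8.46, 9.49, 9.76 and 7.38, and Cox6c had 8.35, 8.62, 11.2 and 6.24.

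Cox5a, a nuclear subunit found in all mammalian complex IV, had a locus at its start and another only at 6 h. The locus at the start (chromosome 9, 57520634 to 57521710) had 10.03, 10.5, 7.94 and 4.37. The locus only at 6 h (chromosome 9, 57529899 to 57530221) lay inside the gene, 8667 bp from the start and outside H3K27ac, with 15.2 and 15.5. Within each 6 h list it was stronger than the peak at the Cox5a start, and it had the highest fold enrichment of any peak at the 96 genes in the second 6 h library. The nearest listed start was that of Fam219b.

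In complex V, 12 of 17 genes (70.6%) had a locus in all 4 libraries, close to the 71.4% of the core of complex I. Atp5g2 and Atp5g3 encode the same mature c subunit, which forms the rotor ring. Atp5g2 had 13.7, 13.7, 13.4 and 8.07 at its start and a second locus 486 bp upstream with 9.02, 8.20, 9.20 and 6.89. Atp5g3 had 9.24, 13.5, 12.8 and 8.46. Atp5a1, the alpha subunit, shared its locus with the end of Haus1 and had 12.03, 11.4, 18.5 and 9.40. Atp5mpl, a small membrane subunit, had 14.96, 12.5, 16.5 and 12.3. In each library the strongest peak of each of these 4 genes lay above the median of the list. Atp5j, the coupling factor 6 subunit, shared its locus (chromosome 16, 84834580 to 84835709) with the start of Gabpa, which encodes the DNA-binding subunit of GABP, and had 9.55, 12.1, 8.74 and 4.76. Atp5e, the epsilon subunit, had H3K27ac and no GR peak.

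Among loci called only at 0 h, 4 lay at gene starts, at Atp5k, Cox7b, Ndufa8 and Ndufb11. They were weak peaks. The values in the 0 h libraries were 5.90 and 5.82 for Atp5k, 7.38 and 7.65 for Cox7b, 6.11 and 7.37 for Ndufa8, and 6.92 and 6.82 for Ndufb11. Except in the first library for Cox7b, these lie under the medians of the 0 h lists, 7.34 and 7.68. The other 3 lay away from starts. The locus of Ndufs5 (7.49 and 10.3) lay 92 bp outside the gene and 5568 bp from its start. That of Sdhb (5.80 and 6.48) was 16737 bp from the start, nearest to that of Atp13a2, and that of Ndufs4 (6.36 and 5.83) was 44718 bp from the start.

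Among the loci only at 6 h, that of Cox5a is given above. Atp5o, the subunit that joins the stalk to the catalytic head, had the only one at a start (chromosome 16, 91931333 to 91931774), with 7.13 and 7.46 and inside H3K27ac. Ndufs4, an accessory complex I gene, had one inside the gene, 25517 bp from the start and outside H3K27ac, with 6.77 and 9.34. The same gene had a locus in all 4 libraries at its start, with 6.95, 6.21, 7.75 and 5.74. Ndufs4 was the only one of the 96 with a locus of each of the 3 kinds.

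Many loci stood beside a second gene. Of the loci in all 4 libraries that lay within 1 kb of an end of any protein-coding gene, 19 of 43 at these genes (44.2%) had ends of at least 2 genes within that distance. Over all such loci of the series it was 791 of 3840 (20.6%). Beside the loci in all 4 libraries at these genes stood 23 neighbours. They included Eef1b2, Rps28 and Mrpl58 of translation and Gabpa, but also Cpsf2, Haus1, Kbtbd4, Lrrc41, Topors and Tssk6. No theme is read from them. With loci beside another gene left out, 26 genes had a locus in all 4 libraries. To which gene of a pair a peak belongs was not tested.

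Only 3 of the 96 genes are on the X chromosome, namely Ndufa1, Ndufb11 and Cox7b. Each had H3K27ac, 2 had a GR peak in both 0 h libraries, and none had one at 6 h. Among all 396 X chromosome genes with H3K27ac, 42.9% and 41.2% had a GR peak at 0 h and 47.7% and 25.5% at 6 h, below the shares of 52.2% to 74.7% for all genes with the mark. With 3 genes, nothing further can be read from this.

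Loci in all 4 libraries also lay at other genes of mitochondrial energy metabolism, where the share over all genes is 23.9% and over genes with H3K27ac 42.2%. Of 12 regulators of mitochondrial biogenesis, 8 (66.7%) had one, among them Nrf1 (13.5, 13.6, 14.7 and 8.47), Gabpb1 (13.4, 10.4, 11.6 and 8.23) and Tfb2m (14.5, 15.2, 11.9 and 10.5). Ppargc1a and Ppargc1b, coactivators of mitochondrial genes, had H3K27ac and no GR peak. Of 10 genes of electron carriers 5 (50%) had such a locus, among them Cycs, which encodes cytochrome c (8.69, 10.4, 11.3 and 6.42). Of 30 assembly factor genes of complexes II to V 17 (56.7%) had one, and the strongest was at Bcs1l, a complex III factor (25.03, 30.6, 23.6 and 16.4). Of 17 genes of the citric acid cycle and pyruvate dehydrogenase, 17 and 16 had a GR peak at 0 h, 16 in the first and 7 in the second 6 h library, and 7 (41.2%) had a locus in all 4, near the share of genes with H3K27ac. Over all genes with H3K27ac the shares with a GR peak in the 4 libraries were 68.5%, 64.4%, 74.7% and 52.2%. Loci only at 6 h lay at 0 of the regulators, 0 of the carriers, 2 of the 30 assembly factors (Cox20 and Uqcc1) and 0 of the 17 citric acid cycle genes. The share for loci only at 6 h is 6.13% over all genes and 10% over those with H3K27ac. With lists this short, nothing further is read from these counts.

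Star moves cholesterol into mitochondria, and Cyp11a1, Fdx1 and Fdxr carry out the first step of steroid synthesis there. Each of the 4 had a locus only at 6 h, and 3 of the 4 also had one in all 4 libraries. They were listed with their 6 h loci already known, so nothing is read from this count. Families of the protein synthesis machinery are given for scale. Of 78 mitochondrial ribosomal protein genes 43 (55.1%) had a locus in all 4 libraries and 3 one only at 6 h, and of 100 cytosolic ribosomal protein genes 81 (81.0%) and 3. No test was made between these families.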

How the data were processed

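Peak lists of 4 GR libraries and 1 H3K27ac library were used; the other 4 of the 9 samples were not analysed here. Reads were aligned with Bowtie2 2.4.5 to mm10 and peaks called with MACS2, 1 list per library, per the submitters' processing notes. In every GR peak the deposited score equals the −log10 p-value times 10, rounded down. The deposited fold enrichment is a ratio over the peak caller's background. By the deposited −log10 p-value, the weakest GR peak of a list had 9.00 to 9.10; q-values were not used. The deposited H3K27ac list has no values. Fold enrichments describe and rank peaks within a list only. Neither read depth nor control is stated in these sources, and a longer list may come from a deeper library.

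Peaks off the assembled nuclear chromosomes were dropped. Overlapping peaks were merged into loci. Gene spans came from RefSeq, starts and strands from its promoter table. The mean rank of a gene averages, over libraries, the share of the list's peaks as strong as its strongest peak or stronger. Where a start was listed nearness was measured to it, otherwise to either gene end. Library numbers were compared by exact permutation with Python 3.11.15 and scipy 1.17.1. Overlap code was tested on simulated peaks. Named genes were the 4 best ranked per complex, those with time-restricted loci, those without GR and the complex IV tissue isoforms. Of those without GR, Ndufa3, which had H3K27ac, is named only here. Other genes were named after their values were seen. The members, lists and motifs were chosen with earlier results of these data known.

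Ndufs1, Ndufa2, Ndufb4c, Ndufb9, Ndufaf6, Sdhc, Uqcrb, Uqcrc2, Uqcrq, Cox4i1, Cox4i2, Cox6a2, Cox6c, Cox8c, Ndufa4l2, Atp5a1 and Atp5mpl were among the 18 genes not matched in the promoter table. The values of 1 gene are not reported here, although it is part of all counts.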

Additional observations from a re-analysis of the deposited data

How the results depend on the processing

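Of 67 recomputed values, 1 turned its direction and 10 counts moved by more than the limit for a like count; among the rest, differences kept their sign but some changed in size. The difference in genes with a GR peak ranged from -19.5 to 2.5 with 1 library left out, and it reversed without the second 6 h library. With lists of equal length it was -17.5. The differences in the H3K27ac share and in the share near a start kept their sign in every alternative run; the second was -11.4 with the stronger 50% of each list. Genes with a locus in all 4 libraries numbered 46 to 59 with 1 library left out, 20 with the stronger 50% of each list and 26 with loci beside another gene left out, the last chosen after seeing the data. Genes with a locus only at 6 h numbered 4 to 14 with 1 library left out, 7 with a window of 10 kb and 2 with the stronger 50%. Genes with a locus only at 0 h numbered 7 to 23 with 1 library left out, 1 with the stronger 50% and 11 with lists of equal length (9726 peaks). Each class asks for calls in named libraries, and with a library gone it asks for fewer. With a replicate block the 3 differences were the same, -8.5 genes and -4.90 and -2.57 percentage points, with an exact sign-flip permutation p of 0.5, the smallest possible. Libraries of the same number did not deviate together in fold enrichment (correlation 0.03 across 5012 loci in all 4 libraries). That value rests on 2 pairs of libraries and cannot show whether same-numbered libraries share an origin. With 2 libraries a group the smallest exact permutation p is 0.3333, and read depth is unknown.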
